A study of Mus musculus with 5 samples.

Results

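The 10 genes described here encode tubulin isotypes, the alternative forms of the 2 proteins that pair up to build microtubules. They are the α-tubulin genes Tuba1a, Tuba1b, Tuba1c, Tuba4a and Tuba8 and the β-tubulin genes Tubb2a, Tubb3, Tubb4b, Tubb5 and Tubb6. They were taken by symbol from a table of 17818 gene symbols, and all 10 were present, passed the filter on low values (at least 1 CPM in at least 2 libraries) and were tested among 12734 genes. The list was selected on log2 CPM values of these same 5 libraries, in which Tuba4a and Tuba1b were known to have small p-values against wild type, so the comparisons with the wild-type heart are given as a description and carry no test of their own.

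Messenger RNA came from hearts of male mice after a bone marrow transplant, a design that models clonal haematopoiesis, in which blood cells with a mutation expand. WT vector was 1 library with the genotype label WT, Tet2 vector was 2 libraries labelled Tet2+/- and given vector, and Tet2 oridonin was 2 libraries labelled Tet2+/- and given oridonin, a plant diterpenoid. Hearts were collected 12 months after transplantation, and the transplant was common to all groups. The time label gives 2 months of treatment for every sample, whereas the titles give 1 month for replicate 1 and 2 months for replicate 2 of each Tet2 group and 1 month for WT, so treatment length may differ between replicates. The labels do not say whether Tet2+/- describes the marrow, the recipient or both, nor whether each library was 1 animal. With 1 WT library, whatever is particular to that library cannot be told apart from the genotype. P-values reflect just the spread among the libraries at hand, which may be technical.

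Microtubules are hollow polymers of α- and β-tubulin pairs that give cells stiffness and serve as tracks for kinesin and dynein motors. In heart muscle cells they run between the myofibrils and carry mRNA and organelles. Those whose α-tubulin has lost its last amino acid, a tyrosine, bind desmin filaments at the Z-disc and resist shortening during contraction, and a denser, more detyrosinated network is a known feature of the hypertrophied and failing heart. The amount of tubulin mRNA is also set by the protein itself. When free tubulin is plentiful, TTC5 recognises the first residues of tubulin as it leaves the ribosome and the mRNA is degraded through the CCR4-NOT complex.

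The sequences behind both features are shown. The last codons separate some α members, whereas the residues at the start separate only the α from the β members. Coding sequences were read from GENCODE M21 transcripts on GRCm38. The last 21 bases of 4 α genes are given with the codon before the stop codon in capitals.
Tuba1b: gaagaaggagaggagTACtaa
Tuba1c: gatgagggtgaggaaTATtaa
Tuba4a: gaggatgagggagaaGAGtag
Tuba8: aatgagggggaggaaTTTtaa

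Tuba1b and Tuba1c end in a tyrosine codon (TAC or TAT). Tuba4a ends in a glutamate codon (GAG), so its protein is made in the form that the other isotypes reach only after the tyrosine is removed, and Tuba8 ends in a phenylalanine codon (TTT). The first 12 bases are given next with codons 2 to 4 in capitals, the residues that TTC5 reads.
Tuba1b: atgCGTGAGTGC
Tuba4a: atgCGCGAGTGC
Tuba8: atgAGGGAATGC
Tubb4b: atgAGGGAGATC
Tubb5: atgAGGGAAATC

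All 5 α members carry codons for arginine, glutamate and cysteine there, and the β members shown carry codons for arginine, glutamate and isoleucine. Tuba1a and Tuba1c have the same 12 bases as Tuba1b. Across whole coding sequences, Tuba1a and Tuba1b were 98.3% identical, while the other α pairs outside the Tuba1 trio were 78.8% to 85.2% identical and the β pairs 80.2% to 85.7%. Of the 100-base words in each transcript, 38.4% in Tuba1a, 52.3% in Tuba1b and 53.4% in Tuba1c also occurred in another tubulin transcript, as did 35.9% in Tubb2a, mostly in Tubb2b. Levels of those 4 genes are therefore uncertain where the authors' counting could split reads between copies. In the other 6 members the share was 0%. The search covered principal transcripts of 20 tubulin genes and no pseudogenes, so it does not show these members free of shared reads. The pseudogene Tubb4b-ps1 was at 1.16 to 2.67 CPM.

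The recovered library totals ran from 14574823 to 15535778 counts, and 3 counts, the floor used for a gene not detected, corresponded to 0.193 to 0.206 CPM (counts scaled to the library total). The share of counts from mitochondrially encoded genes was 23.6% for WT vector and 26.8% to 30.2% among Tet2 libraries. All 10 cardiomyocyte markers were detected in every library, and their summed level ran from 43280 to 55044 CPM. Tet2 vector replicate 1 stood apart from the other 4 libraries in several marker sums. Its atrial markers summed to 1088 CPM against 17.6 to 91.7 CPM in the others, fat cell markers to 21.4 against 0.41 to 7.20 CPM, platelet markers to 54.3 against 11.1 to 19.97 CPM and macrophage markers to 660 against 370 to 420 CPM.

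Tuba4a, the α isotype typical of muscle, brain and platelets, had the highest level in every Tet2 library. It stood at 184 CPM in WT vector, 767 and 816 CPM in Tet2 vector and 894 and 906 CPM in Tet2 oridonin. The WT library was below all 4 Tet2 libraries, and both oridonin libraries were above both vector libraries. The log2 fold change was 2.11 ± 0.17 (SE) for Tet2 vector over WT and 2.29 ± 0.17 for oridonin over WT, which is 4.30-fold and 4.89-fold. Over all genes tested, 99.2% had a lower log2 fold change in the vector comparison and 99.7% in the oridonin comparison.

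Tuba1b, a broadly expressed α isotype of dividing and resting cells, measured 43.3 CPM in WT vector, 148 and 133 CPM in Tet2 vector and 118 and 114 CPM in Tet2 oridonin. The 3 groups did not overlap, with vector highest. Its log2 fold change over WT was 1.69 ± 0.20 (SE) with vector and 1.42 ± 0.20 with oridonin.

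Tuba8, an isotype enriched in striated muscle and testis, was at 103 CPM in WT vector, 211 and 308 CPM in Tet2 vector and 203 and 242 CPM in Tet2 oridonin. The WT library was again the lowest, while vector and oridonin libraries overlapped. Vector exceeded WT by 1.31 ± 0.28 (SE) on the log2 scale, and oridonin by 1.10 ± 0.28.

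Tuba1a, best known from developing neurons, was at 28.2 CPM in WT vector, 59.5 and 76.0 CPM in Tet2 vector and 43.1 and 49.3 CPM in Tet2 oridonin. Groups did not overlap, and the oridonin libraries lay between WT and vector. Tet2 vector exceeded WT by a log2 fold change of 1.26 ± 0.25 (SE) and oridonin by 0.71 ± 0.25.

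Tuba1c, the remaining member of the Tuba1 trio on chromosome 15, measured 24.3 CPM in WT vector, 20.7 and 32.7 CPM in Tet2 vector and 15.2 and 24.7 CPM in Tet2 oridonin. All 3 groups overlapped, and vector differed from WT by 0.10 ± 0.41 (SE) on the log2 scale.

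**Figure D1:**
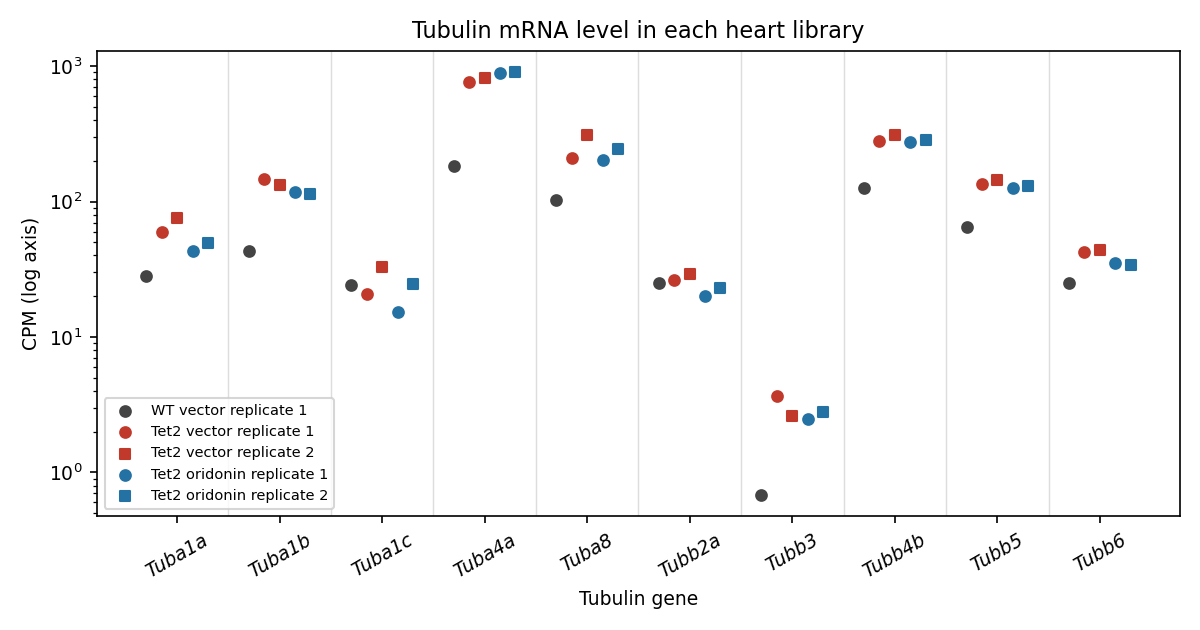
Level of each of the 10 tubulin genes in each of the 5 libraries, as CPM on a log axis, with 1 point per library, colours for the groups and marker shapes for replicates. The WT point lies below all Tet2 points for 8 genes, whereas for Tuba1c and Tubb2a it falls among them.

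Tubb4b, a β isotype found in most cells, was the most abundant β member. It was at 126 CPM in WT vector, 281 and 309 CPM in Tet2 vector and 276 and 286 CPM in Tet2 oridonin. WT was the lowest library and the treated and untreated Tet2 libraries overlapped. The log2 fold change was 1.22 ± 0.19 (SE) for Tet2 vector over WT and 1.15 ± 0.19 for oridonin over WT.

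Tubb5, the general-purpose β isotype of most tissues, was at 65.2 CPM in WT vector, 134 and 144 CPM in Tet2 vector and 127 and 130 CPM in Tet2 oridonin. The groups did not overlap, although vector and oridonin were close. Tet2 vector stood above WT by 1.09 ± 0.20 (SE) on the log2 scale.

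Tubb6, a widely expressed β isotype that is raised in regenerating and dystrophic skeletal muscle, was at 25.1 CPM in WT vector, 42.1 and 44.1 CPM in Tet2 vector and 35.1 and 34.1 CPM in Tet2 oridonin. Oridonin libraries again fell between WT and vector. The log2 fold change over WT was 0.78 ± 0.22 (SE) with vector and 0.46 ± 0.22 with oridonin.

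Tubb2a, abundant in neurons and also present in many other tissues, was at 24.96 CPM in WT vector, 26.3 and 29.2 CPM in Tet2 vector and 20.1 and 22.8 CPM in Tet2 oridonin. The WT library lay between the Tet2 groups, with oridonin lowest. Its log2 fold change was 0.15 ± 0.25 (SE) for vector over WT.

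Tubb3, the β isotype used as a neuron marker, was the scarcest member. It had 10.2 counts in WT vector, a value that is not whole because that column is a mix, 57 and 40 counts in Tet2 vector, and 36 and 41 counts in Tet2 oridonin. In CPM it was at 0.683 in WT vector, 3.67 and 2.61 in Tet2 vector and 2.46 and 2.81 in Tet2 oridonin. WT was lowest, but the log2 fold change of 2.13 ± 0.49 (SE) for Tet2 vector over WT rests on few counts, and it was 1.29 on the log2(CPM + 1) scale. Summed nerve and glia markers, a list that includes Tubb3, were at 26.04 CPM in WT vector and 28.4 to 46.5 CPM in the Tet2 libraries, and their part in the Tubb3 values was not tested.

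In Tet2 vector against WT, 9 of 10 members had groups that did not overlap and were higher, as were 35.4% of all genes, and 0 were lower without overlap, against 32.3%. The log2 fold change was above 0 for all 10 members and for 50.4% of all genes. Of the 10, 8 were also at least 1.5-fold higher, against 12.6% of all genes, and none was that much lower, against 9.4%. Throughout, counts and shares of genes 1.5-fold higher, lower or apart include only genes whose groups also did not overlap. The median log2 fold change was 1.24 over the members and 0.00 over all genes tested. At a false discovery rate of 0.05, limma called 0 of 10 members and 0% of all genes, the smallest adjusted p among members being 0.208 for Tuba4a. At an unadjusted p under 0.05 it took 8 members and 9.59% of all genes, and limma's voom weights also gave 0 calls. These counts describe members picked with the contrast known and support nothing further. On the deposited values, whose replicates the mixing had drawn together, 8 members passed, and leaving out single Tet2 libraries gave 0 to 3. Tuba4a passed when Tet2 vector replicate 1 or either oridonin library was left out.

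In oridonin against WT, 8 members were higher with no overlap, against 31.9% of all genes, and 1 (Tubb2a) was lower with no overlap, against 41.7%. At least 1.5-fold higher were 7 members and 8.42% of all genes, and that much lower 0 members and 9.61%. Tubb6 was the member that reached 1.5-fold with vector but not with oridonin. The median log2 fold change was 1.04 over members and -0.06 over all genes. Limma called 0 members and 0% of all genes, and at an unadjusted p under 0.05 it took 7 members and 6.21% of all genes. Both comparisons with WT use the same WT library, so the similar values in them are not separate observations.

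**Figure D2:**
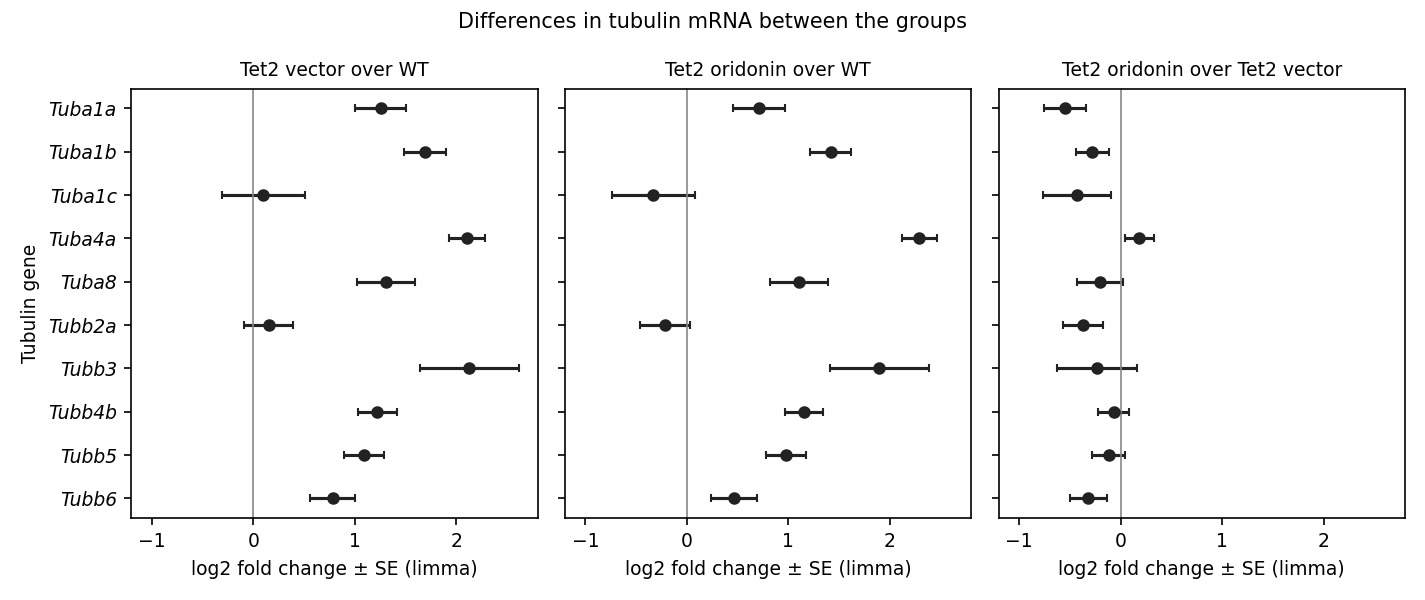
Log2 fold change of each tubulin gene in the 3 comparisons, with points for the estimate and bars for its standard error from limma. Values over WT span 0.10 to 2.13 with vector, and the oridonin over vector values lie between -0.54 and 0.19.

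Comparing oridonin with vector among Tet2 libraries, no member was 1.5-fold apart in either direction, against 1.46% of all genes higher and 4.17% lower. Without Tet2 vector replicate 1 there were 2 such members, and likewise 2 without oridonin replicate 2. Limma called 0 of 10 members and 0% of all genes, with adjusted p = 0.9999 for each member, and voom weights gave 0 calls as well. At an unadjusted p under 0.05 only Tuba1a passed, against 2.6% of all genes. The log2 fold change was below 0 for 9 members and for 59.8% of all genes. Groups did not overlap and oridonin was lower for 5 members (Tuba1a, Tuba1b, Tubb2a, Tubb5 and Tubb6), against 17.8% of all genes. They did not overlap and oridonin was higher for Tuba4a alone, against 8.37%. The median was -0.25 over the members and -0.05 over all genes.

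The 95% intervals below rest on the spread among these libraries, which may be technical, and are not adjusted over genes. They describe the fit and set no bound on an oridonin effect. For Tuba4a the log2 difference was 0.19, with a 95% interval from -0.16 to 0.53. Tubb4b had -0.07, with an interval from -0.45 to 0.31, and Tubb5 had -0.11, from -0.51 to 0.28. For Tuba1b the value was -0.28, from -0.68 to 0.13. Tuba1a had the lowest value, -0.54, from -1.05 to -0.04 before any adjustment over genes. Tuba8, at -0.20, had a wide interval from -0.76 to 0.36, and its sign turned to 0.07 without Tet2 vector replicate 2. A p that misses the threshold does not show that treated and untreated hearts had the same levels.

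**Figure D3:**
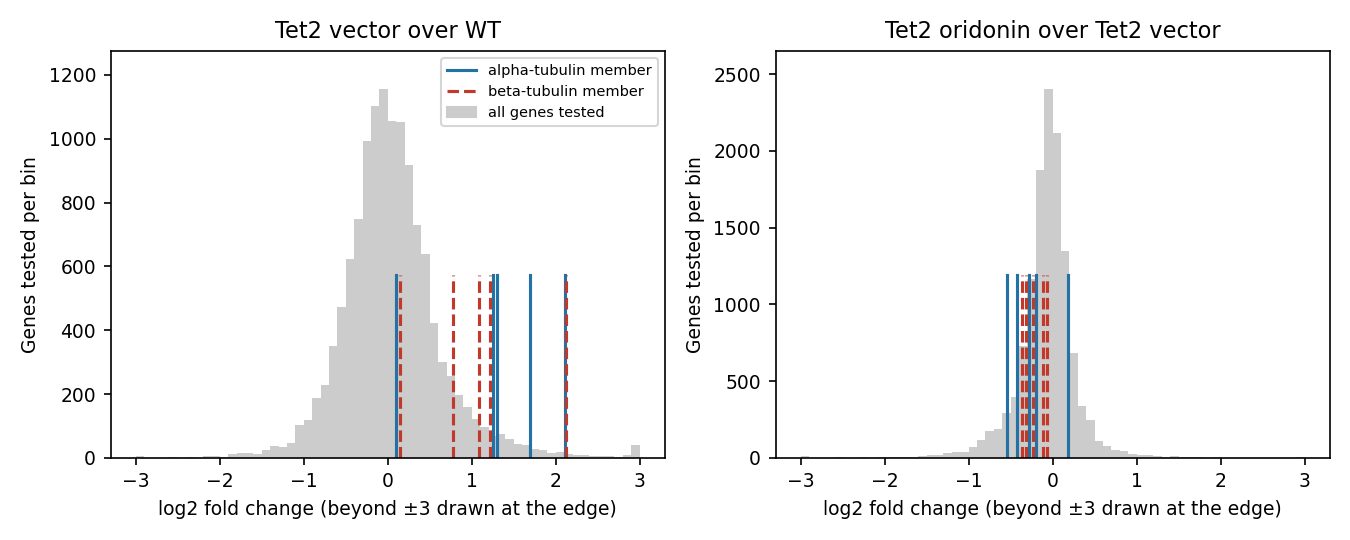
Histogram of the log2 fold change of all 12734 genes tested, as genes per bin, for Tet2 vector over WT and for oridonin over Tet2 vector, with solid lines at the α members and dashed lines at the β members. Against WT 8 members lie in the upper tail, between 0.78 and 2.13, and against vector the members lie between -0.54 and 0.19, inside the bulk of all genes.

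Because counts grow with transcript length, levels were compared between genes as CPM per kilobase of the principal transcript. In WT vector Tubb4b was highest at 79.0 and Tuba4a second at 64.7 CPM per kilobase. In all 4 Tet2 libraries the order was reversed, with Tuba4a at 270.2 to 319 and Tubb4b at 172 to 193 CPM per kilobase. Below them followed Tuba8, Tuba1b, Tubb5, Tuba1a, Tubb6, Tubb2a, Tuba1c and Tubb3 in each Tet2 library. Among neighbours in that order, the Tet2 ranges overlapped for Tuba1a with Tubb6 and for Tubb2a with Tuba1c, and not elsewhere. Per kilobase of all annotated exons, Tubb2a ranked above Tubb6 in Tet2 vector replicate 2 and oridonin replicate 2, and Tuba4a and Tubb4b kept their order.

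On that per-length scale, Tuba4a made up 39.7% of the summed α level in WT vector, 55.0% and 51.4% in Tet2 vector and 62.5% and 60.1% in Tet2 oridonin. The shares of the 3 groups did not overlap. As shares of counts they were 48.0%, then 63.6% and 59.7%, then 70.2% and 67.8%, and per kilobase of all annotated exons 34.3%, then 49.2% and 45.5%, then 56.9% and 54.3%. Tuba8 held 27.9% in WT vector and 17.8% to 24.4% in the Tet2 libraries, and Tuba1c 7.53% against 1.52% to 2.96%. The β side varied less. Tubb4b held 59.0% in WT vector and 65.4% to 68.0% in the Tet2 libraries, and Tubb5 lay between 18.4% and 18.9% in all 5. Tubb2a was 11.6% of the β level in WT and 4.92% to 6.21% in the Tet2 libraries. Counting error is small beside these gaps, since the 95% Wilson intervals of the shares taken over counts reached at most 1.29 percentage points to either side for α and 1.63 for β, and cover counting error only.

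**Figure D4:**
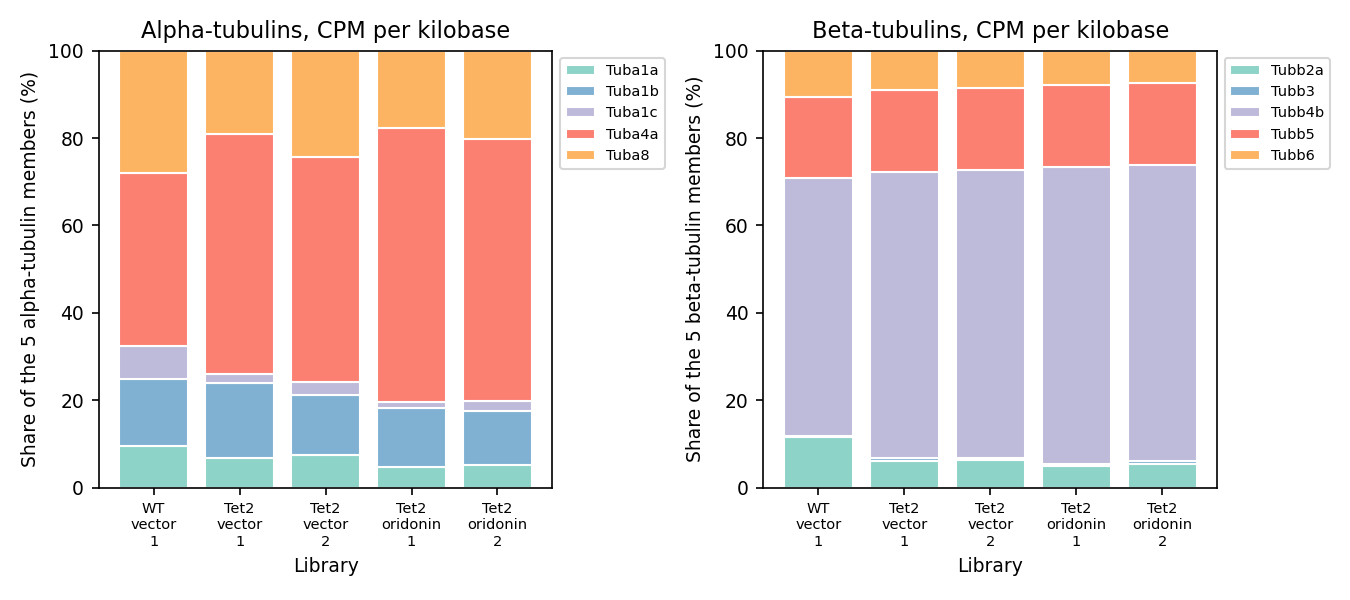
Share of each isotype in the summed α level and in the summed β level, per kilobase of transcript, as stacked bars in percent for each of the 5 libraries. Tuba4a is 39.7% of α in the WT library and 51.4% to 62.5% in the Tet2 libraries, while Tubb5 is 18.4% to 18.9% of β in all 5.

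Summed over the 10 members, tubulin mRNA was at 625 CPM in WT vector, 1692 and 1895 CPM in Tet2 vector and 1733 and 1811 CPM in Tet2 oridonin. The Tet2 sums were 2.71 to 3.03 times the WT sum. Tuba4a was not the only contributor, since α without it was 1.90 to 2.76 times WT and β 1.90 to 2.18 times WT. Per kilobase, the α sum was 1.22 times the β sum in WT vector, 1.83 and 1.91 times in Tet2 vector and 1.98 and 2.02 times in Tet2 oridonin. In bulk tissue, more cells of a type and more RNA per cell cannot be told apart.

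Other tubulin genes were at levels like those of the scarcer members or lower. Of 11 listed, 8 were in the table and 5 were tested. None of those 5 was 1.5-fold apart between Tet2 vector and WT. Tubg1, the γ-tubulin that seeds microtubules, was at 18.1 CPM in WT vector, 24.3 and 24.5 CPM in Tet2 vector and 22.4 and 23.7 CPM in Tet2 oridonin. Tubb2b was at 3.07 CPM in WT vector and 1.78 to 2.45 CPM in the Tet2 libraries. Tubb4a was at 2.35 CPM in WT vector and 1.17 to 3.99 CPM in the others, Tubg2 at 1.65 and 1.03 to 2.12 CPM, and Tubd1, the δ-tubulin of centrioles, at 6.60 and 6.63 to 7.11 CPM. The scarcer platelet isotype Tubb1, the ε-tubulin Tube1 and Tuba3b, were under the filter.

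RefSeq promoter windows on GRCm38.p6, 250 bases before to 50 after the gene's start, were matched for 9 of 10 members. The 250 bases before the start are shown for Tubb4b, which was higher in every Tet2 library than in WT, and for Tubb2a, which was not, with the TATA box (TATAAA), the CCAAT box and the GC box (GGGCGG) on either strand in capitals.
Tubb4b, chr2:25224703-25224952, minus strand: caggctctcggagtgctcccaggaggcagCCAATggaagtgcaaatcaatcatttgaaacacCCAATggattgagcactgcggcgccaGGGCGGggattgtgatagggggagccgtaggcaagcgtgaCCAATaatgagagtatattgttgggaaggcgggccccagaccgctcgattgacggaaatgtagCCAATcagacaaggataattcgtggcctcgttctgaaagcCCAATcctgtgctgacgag
Tubb2a, chr13:34078009-34078258, minus strand: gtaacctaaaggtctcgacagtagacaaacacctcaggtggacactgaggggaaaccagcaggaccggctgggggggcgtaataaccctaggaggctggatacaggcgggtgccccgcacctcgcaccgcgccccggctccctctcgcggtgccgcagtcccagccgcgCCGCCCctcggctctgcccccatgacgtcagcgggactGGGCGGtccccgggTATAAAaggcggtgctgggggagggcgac

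Both strands of the whole windows were searched. RefSeq and GENCODE place some starts differently. The Tuba4a window lies inside the GENCODE gene, and that of Tuba1b overlaps its gene's first exon. GGGCGG, the GC box bound by Sp factors, occurred in 7 of 9 member windows and in 35.7% of 32851 promoters. The GC content was 53.7% to 72.7% in the member windows, against a median of 52.7% over all promoters. Its part in the motif counts was not tested. It was in Tuba4a, Tuba1b and Tubb4b, and not in Tuba8 or Tuba1c. CCAAT occurred in 5 of 9 and in 37.4% of all, and of the pair shown Tubb4b had it, 5 times, and Tubb2a did not. It was also in Tuba1a, Tuba1c, Tubb3 and Tubb5, and not in Tuba4a, Tuba1b or Tuba8. TATAAA was in 2 of 9 (13.6% of all), which were Tubb2a and Tubb4b. In Tubb4b the TATAAA match and a further GC box were not within the bases shown. CACGTG was in 2 of 9 (7.15%), TGACGTCA in 1 of 9 (1.79%) and the CArG box in 0 of 9 (1.63%). The GC box and the CCAAT box were each in windows of members on both sides of the 1.5-fold line. These matches describe letters in a window and are not binding sites.

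For genes that act on tubulin, list medians in Tet2 vector against WT ran from -0.47 to 0.25. Limma called 0 members of every list below at a false discovery rate of 0.05 in each comparison. The counts at 1.5-fold without overlap in Tet2 vector against WT stand beside 12.6% of all genes higher and 9.4% lower. Of the 7 folding cofactors that assemble the α/β pair, 1 was at least 1.5-fold higher and 1 lower in Tet2 vector against WT, with a median log2 fold change of 0.02. Tbcc, which completes assembly, was at 7.76 CPM in WT vector and 10.9 and 13.1 CPM in Tet2 vector, and Tbce, which binds α-tubulin, at 24.9 CPM and 17.1 and 14.1 CPM. Of 14 subunits of the chaperonin CCT and prefoldin, which fold new tubulin, 1 was 1.5-fold higher, Pfdn4, at 4.43 CPM in WT vector and 8.17 and 8.999 CPM in Tet2 vector. The median over the 14 was 0.08.

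In the autoregulation list, 0 of 7 genes were 1.5-fold higher and 1 was lower. Ttc5 itself was at 11.6 CPM in WT vector, 15.1 and 13.1 CPM in Tet2 vector and 12.5 and 12.0 CPM in Tet2 oridonin. Its log2 fold change was 0.28 ± 0.27 (SE) for vector over WT. Cnot1, the scaffold of CCR4-NOT, was at 146 CPM in WT vector, 111 and 62.1 CPM in Tet2 vector and 94.7 and 112 CPM in Tet2 oridonin.

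Enzymes that remove or restore the final tyrosine were expressed at low levels, and of the 4 tested, 0 were 1.5-fold higher and 1 was lower. Ttl, the ligase that puts tyrosine back, was at 30.01 CPM in WT vector, 36.3 and 29.3 CPM in Tet2 vector and 26.9 and 33.7 CPM in Tet2 oridonin, so all groups overlapped. Vash1, which removes it, was at 8.30 CPM in WT vector, 7.92 and 2.93 CPM in Tet2 vector and 6.63 and 8.85 CPM in Tet2 oridonin. Vash2, its relative, was at 0 counts in WT vector, a level under the floor of 3 counts, and had 5 and 6 counts in Tet2 vector and 4 and 3 in Tet2 oridonin. Svbp, the partner that both need, was at 13.4 CPM, then 14.9 and 21.1 CPM, then 14.9 and 13.7 CPM in the same order. Desmin (Des), the filament that detyrosinated microtubules bind, was at 2122 CPM in WT vector, 1387 and 1881 CPM in Tet2 vector and 1695 and 1545 CPM in Tet2 oridonin.

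Among acetylation genes, 0 of 3 were 1.5-fold apart in Tet2 vector against WT. The acetyltransferase Atat1 was at 3.38 CPM in WT vector and 3.72 to 6.18 CPM in the Tet2 libraries, and the deacetylase Hdac6 at 15.4 and 9.74 to 13.3 CPM. Of 11 glutamylation and glycylation enzymes, 3 were higher and 2 lower by 1.5-fold. Ttll7, which adds glutamate to β-tubulin tails, was at 26.6 CPM in WT vector, 10.4 and 8.80 CPM in Tet2 vector and 12.6 and 17.2 CPM in Tet2 oridonin.

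Of 16 microtubule-associated proteins, 1 was higher and 3 lower by 1.5-fold (12.6% and 9.4% of all genes), with a median log2 fold change of -0.34. Map4, the main one of heart muscle, was at 470 CPM in WT vector, 355 and 268 CPM in Tet2 vector and 315 and 337 CPM in Tet2 oridonin. Of 13 proteins that bind microtubule ends, 0 were higher and 4 lower, with a median of -0.47, and Clip1 was at 343 CPM in WT vector and 170 to 231 CPM in the Tet2 libraries. For 18 kinesins 1 was higher and 4 lower (median -0.24), and for 19 dynein and dynactin genes 0 and 4 (median -0.24), beside the same 12.6% and 9.4%. Dync1h1, the dynein heavy chain, was at 441 CPM in WT vector and 163 to 280 CPM in the Tet2 libraries. Severing enzymes (0 of 6), stathmins (0 of 2) and the γ-tubulin ring complex (0 of 11 higher, 2 lower) gave medians of 0.25, -0.13 and -0.07. Stmn1, a stathmin that sequesters free tubulin, was at 12.2 CPM in WT vector, 6.63 and 10.6 CPM in Tet2 vector and 9.16 and 6.52 CPM in Tet2 oridonin.

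**Figure D5:**
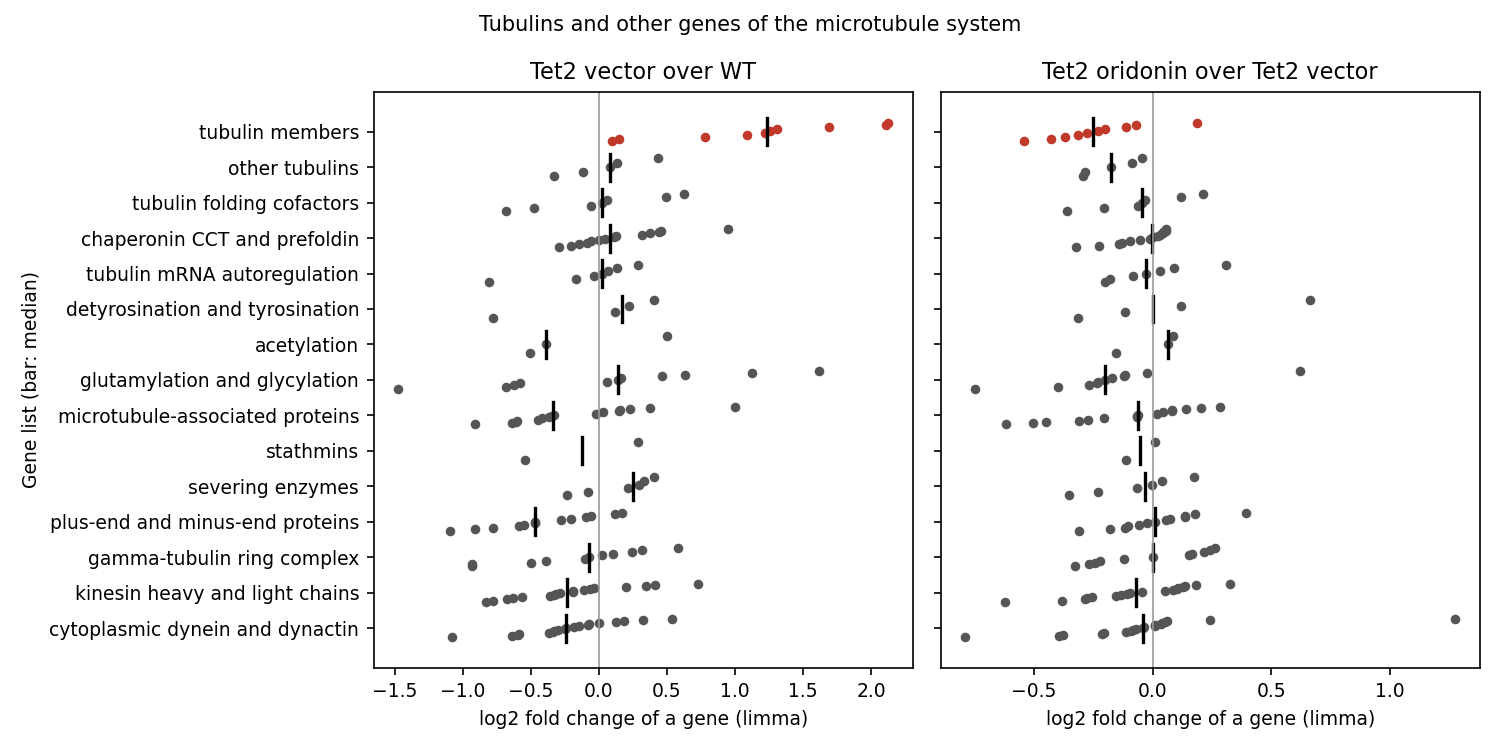
Log2 fold change of every tested gene in the tubulin list and in the lists of genes that act on tubulin, with 1 point per gene and a bar at each list's median, for Tet2 vector against WT and oridonin against Tet2 vector. The tubulin members have a median of 1.24 over WT, whereas end-binding proteins have -0.47 and chaperonin genes 0.08. The part of transcript length in these medians was not tested.

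In GRCm38 (GENCODE M21 gene models), 3 members are neighbours on chromosome 15 and the other 7 lie on a chromosome each. Tuba1b (chr15:98931425-98934565, minus strand), Tuba1a (chr15:98949837-98953703, minus strand) and Tuba1c (chr15:99029891-99038110, plus strand) form that group. Tuba4a is at chr1:75214228-75219865 on the minus strand, Tuba8 at chr6:121210696-121226854 on the plus strand and Tubb4b at chr2:25222160-25224702 on the minus strand. Tubb5 lies at chr17:35833921-35838306 and Tubb2a at chr13:34074274-34078007, both on the minus strand, and Tubb3 at chr8:123411424-123422015 and Tubb6 at chr18:67390717-67402749, both on the plus strand. Tuba4a overlaps Stk16 on the opposite strand, and without strand their reads cannot be told apart. Stk16 was at 19.4 CPM in WT vector and 20.7 to 24.98 CPM in the Tet2 libraries. Of the nearest tested genes on either side of the members that are not tubulins, Stk16 among them, 15 were compared and 0 were 1.5-fold apart in any of the 3 comparisons. Their log2 fold changes ran from -0.56 to 0.48 in Tet2 vector against WT. Tubb2b, the neighbour of Tubb2a, was 1.5-fold lower in oridonin against WT, with a log2 fold change of -0.62.

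Exon length, taken over all annotated exons of a gene, moved with these values. It was available for 12302 genes. The median log2 difference between Tet2 vector and WT was 0.23 for genes under 2000 bases and 0.10 for 2000 to 4000 bases. It was -0.06 for 4000 to 8000 bases and -0.19 for 8000 bases or more. In the same order, 20.8%, 15.5%, 9.97% and 7.81% were at least 1.5-fold higher without overlap. All 10 members are under 4000 bases, 4 of them under 2000. For the longest genes the 2 Tet2 vector libraries had medians of 0.06 and -0.46 over WT. The part of length in the tubulin values, and in the medians of the lists of genes that act on tubulin, was not tested.

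Sums of markers of other cells differed between libraries, and not all of them followed the groups. Summed over 8 fibroblast genes, the level was 996 CPM in WT vector, 1539 and 1598 CPM in Tet2 vector and 844 and 874 CPM in Tet2 oridonin. Macrophage markers summed to 370 CPM, then 660 and 420 CPM, then 393 and 390 CPM, and platelet markers to 11.1 CPM, 54.3 and 19.3 CPM, and 17.6 and 20.0 CPM. For platelet markers the vector and oridonin libraries overlapped. In the same order, endothelial markers summed to 1096 CPM, 1099 and 985 CPM, and 1069 and 1205 CPM. Red cell markers summed to 368 CPM, 248 and 147 CPM, and 387 and 319 CPM, with vector lowest. The part of these cells in the tubulin values was not tested. Cardiomyocyte markers had a median log2 fold change of -0.10 for Tet2 vector over WT, with 0 of 10 higher and 1 (Ryr2) lower by 1.5-fold.

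The genes whose pattern was most like that of Tuba4a were sought among 8054 genes averaging 10 CPM or more, by the root mean square difference of log2 CPM after centring each gene on its own mean of the 5 libraries. Smim5 was closest at 0.26, then Nrep at 0.28, Lingo3 at 0.33, Dbp at 0.33 and Alas1 at 0.34, against a median of 0.94. For Tuba1b they were Alas1 at 0.13, Actc1 at 0.13, Sh3kbp1 at 0.14, Col15a1 at 0.15 and Smim5 at 0.15, against 0.69. Among members, Tubb3 was closest to Tuba4a at 0.28, and Tubb4b to Tuba1b at 0.20. With 1 WT library these distances mostly reflect the step from that library to the other 4.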

How the data were processed

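Per the labels' protocols, poly-A RNA was prepared with NEBNext Ultra chemistry, and the submitters' processing notes name mm10. Aligner, counter, annotation and strand setting are not given in the sources used. Per sample, the authors deposited log2 values for 17818 symbols. From the values, these are log2 CPM of count plus 0.5, each Tet2 column being 0.75 of its own value and 0.25 of its group's other replicate. The mix was undone (99.92% to 99.94% of genes whole within 0.01). The WT column was itself such a mix, of a pair of count sets whose origin is not given (99.96% of 4561 genes checked). It was used as deposited. For the members, the ratio of the less weighted to the more weighted count was 0.92 to 1.10. The search accepted only pairs of counts close to each other, so this ratio was limited in advance. The 4561 genes checked were those in a set middle range of counts.

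Genes reaching 1 CPM in 2 or more libraries entered limma 3.58.1 (trend, robust; group as the only term; 2 residual degrees of freedom; R 4.3.3), with Benjamini-Hochberg adjustment over all 12734 genes. WT, with a single library, is taken to vary as the Tet2 groups do. Its values mix a pair of count sets, unlike the unmixed Tet2 values, so this assumption may not hold. The script was tested on simulated data. Members, lists and tests were chosen with earlier results of these data known. Members, other tubulins, up to 3 genes of smallest p per list and preset microtubule genes were eligible to be named. Alternatives covered normalization, filter, pseudocount, voom, replicate blocks and leaving out each library. The title number served as replicate number. The end of 1 coding sequence is not reported here.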

Additional observations from a re-analysis of the deposited data

How the results depend on the processing

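The number of members at least 1.5-fold apart was 8 in Tet2 vector against WT and 7 to 8 in oridonin against WT under the alternatives run, except 7 and 6 at a filter of 5 CPM, which Tubb3 did not pass; it was 0 to 2 in oridonin against Tet2 vector when 1 library was left out. On deposited values, limma called 2312 genes and 8 members (Tet2 vector against WT), 76 genes (oridonin against vector) and 996 genes and 7 members (oridonin against WT), where the unmixed values gave 0. With the title number as a replicate block, 10, 9 and 6 genes were called, with 1 member (Tuba4a) in each comparison with WT. The same-numbered Tet2 libraries deviated oppositely (r = -0.30 across 12465 genes, which are not independent), so the numbers were not taken to pair samples, and a crossed pairing, chosen after seeing the data, gave 432, 44 and 184 genes, with 6 and 4 members in the comparisons with WT. Leaving out 1 library gave 2 to 107, 0 to 32 and 0 to 24 genes, and 0 to 3 and 0 to 1 members over WT. Median-of-ratios scaling, totals without mitochondrial genes, other filters, voom, log2(CPM + 1) and the first count of the WT pair (added after seeing the data) left every count of calls at 0. In oridonin against Tet2 vector the sign turned for Tuba8 (0.073) and Tubb4b (0.00061) without Tet2 vector replicate 2 and for Tubb3 (0.013) without Tet2 vector replicate 1, and leaving out single libraries gave ranges of -0.48 to 0.07 for Tuba8, -0.47 to 0.01 for Tubb3 and -0.14 to 0.00061 for Tubb4b; the cause was not tested. Totals without mitochondrial genes moved the median of all genes by 0.09 over WT with vector and 0.11 with oridonin. Depth limits Tubb3 most, at 10.2 to 57 counts.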

Other observations

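Actins build the other main cytoskeletal polymer. Of 6 actin genes, 4 were at least 1.5-fold higher and 1 lower in Tet2 vector against WT (12.6% and 9.4% of all genes), with a median log2 fold change of 0.74, and limma called 0 of them at a false discovery rate of 0.05. Actc1, the cardiac α-actin of the sarcomere, was at 5211 CPM in WT vector, 14162 and 13073 CPM in Tet2 vector and 12753 and 13470 CPM in Tet2 oridonin. Actb, the cytoplasmic β-actin, was at 209 CPM in WT vector, 347 and 348 CPM in Tet2 vector and 301 and 299 CPM in Tet2 oridonin. Actg1, the cytoplasmic γ-actin, was at 124 CPM in WT vector, 217 and 199 CPM in Tet2 vector and 156 and 169 CPM in Tet2 oridonin. For all 3 the WT library was the lowest, which did not hold for the other actins. Actg2 was at 2.78 CPM in WT vector and 0.479 to 1.80 CPM in the Tet2 libraries. Acta1 was at 148 CPM in WT vector and 63.3 CPM in Tet2 vector replicate 1. Acta2 was at 105 CPM in WT vector and 88.6 CPM in Tet2 oridonin replicate 2.

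Among tubulins under the filter, the platelet isotype Tubb1 had 1 count in WT vector, 64 and 9 counts in Tet2 vector, and 0 and 13 counts in Tet2 oridonin. Tube1 had 4 counts in WT vector, 21 and 11 in Tet2 vector, and 6 and 9 in Tet2 oridonin.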
